A study of Mus musculus with 16 samples.

Results

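The transcripts described here were 10 mouse genes of lung epithelial and endothelial cells, measured in RNA of neutrophils sorted from blood and lung. They were chosen by name as lung cell genes, and selected on earlier results of these libraries in which they were higher in lung than in blood, out of 49315 genes counted. All 10 were found in every count file by matching the Ensembl identifier to the mouse symbol. The 6 epithelial genes were Scgb1a1, Sftpc, Sftpb, Sftpa1, Sftpd and Ager, and the 4 endothelial genes were Cldn5, Cdh5, Epas1 and Tmem100. Because the contrast of lung with blood chose them, their levels in that contrast are given as a description and carry no test.

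The sort had kept cells positive for Ly6G, CD11b and CD45.2, from male mice of 8 to 12 weeks of age. The mice were WT or αD KO, the latter lacking by design Itgad, the gene of the integrin subunit CD11d. Groups were blood and lung of naive mice (0h) and of mice 12 hours post CLP (cecal ligation and puncture), a surgical model of polymicrobial sepsis. Each of the 8 groups had 3 count files under 2 samples, and each file was taken as a library. Libraries 1a and 1b came from sample 1 and library 2 from sample 2. The study describes the libraries as triplicates, but no source used here says whether 1a and 1b were separate animals, so p-values may measure technical spread. Neither the labels nor the methods state whether lungs were perfused before sorting.

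The lung holds epithelium facing air and endothelium lining its blood vessels. Alveolar type 2 (AT2) cells secrete surfactant, a film of lipid and protein that lowers surface tension, and alveolar type 1 (AT1) cells form the thin gas exchange surface. Club cells line the small airways and secrete proteins into their fluid. Capillary endothelial cells lie directly against AT1 cells. Neutrophils are not known as a source of surfactant or club cell protein, and the cells that these transcripts came from were not tested. In bulk RNA, fewer cells of a type and less RNA per cell cannot be told apart.

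The promoters of a pair of surfactant genes are shown because they share a motif while the genes differed in level. Promoter sequences were held for 4 of the 10 genes (Sftpb, Sftpa1, Ager and Cldn5), as 300 bases from RefSeq on GRCm38.p6. Capitals mark exact matches on either strand to TATAAA (the TATA box), CTCAAG (a core of the site of NKX2-1, the lung epithelial regulator) and AGGAAG (a core of the ETS factor site, CTTCCT on the other strand). The Sftpa1 window was chr14:41131538-41131837 on the plus strand, and the Sftpb window was chr6:72304360-72304659 on the plus strand.
Sftpa1: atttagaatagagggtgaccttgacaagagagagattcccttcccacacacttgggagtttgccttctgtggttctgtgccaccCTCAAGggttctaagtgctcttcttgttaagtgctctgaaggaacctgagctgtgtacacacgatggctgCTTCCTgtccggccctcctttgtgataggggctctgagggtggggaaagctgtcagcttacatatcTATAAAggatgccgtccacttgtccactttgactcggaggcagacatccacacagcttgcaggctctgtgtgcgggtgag
Sftpb: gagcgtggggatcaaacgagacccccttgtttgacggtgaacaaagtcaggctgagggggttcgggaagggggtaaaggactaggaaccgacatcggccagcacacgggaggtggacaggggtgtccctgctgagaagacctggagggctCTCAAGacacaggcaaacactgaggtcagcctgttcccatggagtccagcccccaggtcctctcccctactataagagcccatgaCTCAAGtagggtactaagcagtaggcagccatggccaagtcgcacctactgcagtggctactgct
CTCAAG was found at 1 place in the Sftpa1 window and at 2 places in the Sftpb window. TATAAA was found once, in the Sftpa1 window. Sftpa1 had 1 match to AGGAAG and Ager had 2, and the Cldn5 window held none of the 3 motifs. None of the matches overlapped. Of 32851 promoters of this length, 13.6% held TATAAA, 15.9% held CTCAAG and 35.4% held AGGAAG, and a match is a run of letters, not a bound site.

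Library totals ranged from 5753476 to 29984954 counts (median 18741144). Values are CPM, counts scaled to a common library size by edgeR's TMM method, and 3 counts corresponded to 0.1 to 0.521 CPM of a library's total. All 24 libraries had neutrophil transcripts. S100a8, a calprotectin subunit gene, ranged from 8914 to 97890 CPM, and Csf3r, the G-CSF receptor gene, from 886.9 to 13820 CPM. In the 12 libraries that carry the αD KO label, Itgad ranged from 12.5 to 102 CPM, and in the 12 WT libraries it ranged from 0.0583 to 3.67 CPM. This is the opposite of a simple loss of the transcript, so groups are called by their labels. Over the 778 genes that rose in WT lung at 12 hours, the mean log2(CPM + 1) was 3.36 to 3.52 in WT lung at 0h and 4.96 to 6.44 in WT lung at 12 hours. For αD KO lung by its labels, library 2 of the 0h group was at 5.97, close to the WT libraries of 12 hours, and libraries 1a and 2 of the 12 hour group were at 3.72 and 4.09, closer to those of 0h. The fitted lung values of Scgb1a1 that rest on these 3 libraries are also given without them. The 8 libraries 1b had counts in 29162 to 38844 genes and the other 16 in 17132 to 32666, with αD KO blood 12 hours library 1b as the 1 that lay within the range of the others. The summed level of 1106 olfactory receptor genes, which neutrophils are not known to use, was 228.9 to 2844 CPM in libraries 1b and 21.5 to 284.3 CPM in the others.

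Lung transcripts made up a small part of each neutrophil library from lung. The 10 genes summed to between 45.4 and 854.2 CPM (median 186.1) in the 12 lung libraries, or 0.00405% to 0.0991% of all counts. In 11 of the 12 blood libraries, they summed to between 3.38 and 16 CPM. The remaining blood library, WT 0h library 2, reached 308.7 CPM, above 9 of the 12 lung libraries. Scgb1a1 and Epas1 were higher in every lung library than in any blood library. Sftpc, Cldn5 and Tmem100 joined them when WT blood 0h library 2 was set aside. The other 5 genes overlapped between the tissues even without that library. The share of all genes that part in this way is not given here, so these counts are a description only. The fitted log2 fold change of lung over blood had a median of 3.85 over the 10 genes, beside 0.19 over all 27145 genes tested. edgeR's quasi-likelihood test called 1.6% of those genes in either direction and 1.39% as higher in lung, and the members' own calls are not read here, since this contrast chose them.

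**Figure D1:**
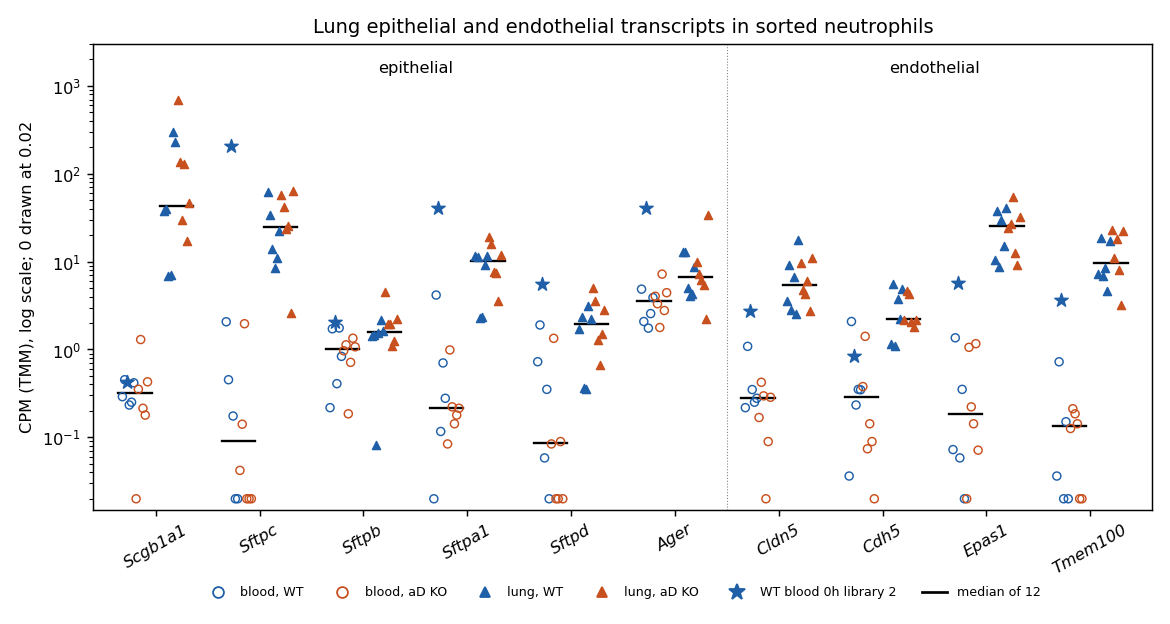
Levels of the 10 lung transcripts in 12 blood (circles) and 12 lung (triangles) libraries, in CPM on a log axis, with values of 0 drawn at 0.02 and a line at each median. The star marks WT blood 0h library 2, which exceeds every lung library for Sftpc, Sftpa1, Sftpd and Ager but sits among the blood libraries for Scgb1a1.

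Scgb1a1 encodes the club cell secretory protein of the small airways and lies on chromosome 19 from 9083636 to 9087958 (GRCm38, minus strand). It was the highest of the 10 genes per kilobase of exon, and its lung levels spread from 6.93 to 699.4 CPM. In WT lung it was 37.3, 39.8 and 6.93 CPM at 0h (libraries 1a, 1b and 2) and 7.12, 295.2 and 231.5 CPM at 12 hours. Libraries 1b and 2 at 12 hours were above all 3 at 0h, and library 1a was not. In the lung groups labelled αD KO, it was 699.4, 134.7 and 29.6 CPM at 0h and 130.7, 17.3 and 46.7 CPM at 12 hours. These 2 groups overlapped, and the highest value of all 24 libraries was that of library 1a at 0h. In blood it ranged from 0 to 1.3 CPM (median 0.322), with at most 35 counts, and in 3 blood libraries it had 3 counts or fewer.

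Sftpc encodes surfactant protein C, a small hydrophobic protein made by AT2 cells, and lies on chromosome 14 from 70520941 to 70524081 (minus strand). In WT lung it was 61.3, 33.9 and 13.9 CPM at 0h and 8.39, 10.9 and 22.3 CPM at 12 hours. In lung labelled αD KO, it was 57.8, 41.8 and 23.7 CPM at 0h and 25.4, 2.62 and 63.1 CPM at 12 hours. The groups overlapped at both times, and all 12 lung libraries held at least 38 counts. In blood the gene was close to absent at 12 hours, with 3, 0 and 0 counts in WT and 0 counts in each of the 3 libraries labelled αD KO. At 0h the blood libraries labelled αD KO held 1, 2 and 53 counts, and those of WT held 57, 5 and 4890 counts. The last of these was 206 CPM, while the highest of the other 11 blood libraries was 2.07 CPM.

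Sftpa1 and Sftpd encode surfactant proteins A and D, collectins that bind microbes in the alveolar fluid, and both lie on chromosome 14, from 41131782 to 41136452 and from 41172212 to 41185198. Sftpa1 ranged from 2.27 to 19.0 CPM in lung (median 10.3), and Sftpd from 0.353 to 5.06 CPM (median 1.97). Their median levels in blood were 0.218 and 0.0869 CPM. For each of them the blood library nearest to lung after WT 0h library 2 was WT 0h library 1b, at 4.16 CPM for Sftpa1 (46 counts) and 1.9 CPM for Sftpd (21 counts). That library had the highest summed olfactory receptor level, at 2844 CPM, and the part of its background in these counts was not tested.

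Sftpb, which encodes surfactant protein B and is essential for the surfactant film, did not follow Sftpc. It lies on chromosome 6 from 72304610 to 72314371. Its level was 0.081 to 4.54 CPM in lung (median 1.59) and 0.185 to 2.06 CPM in blood (median 1.02), with counts in every library. Lung and blood overlapped over most of their ranges, and 7 of 12 lung libraries were at or below the highest of the 11 other blood libraries. In WT blood 0h library 2 it was only 2.06 CPM, beside 1.72 CPM in library 1b.

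Ager encodes RAGE, a receptor held at very high density on AT1 cells, and lies on chromosome 17 from 34597862 to 34600936. It was 2.2 to 33.6 CPM in lung (median 6.66) and present in each of the other 11 blood libraries at 1.75 to 7.21 CPM. The lung median was 1.85 times the blood median. WT blood 0h library 2 held 976 counts of Ager (41.1 CPM), above the highest lung library, αD KO 12 hours library 2. No exon of the 10 genes shares bases with an annotated exon of another gene in the files, and transcription outside annotated exons was not tested.

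Epas1, which encodes the hypoxia-inducible factor HIF-2α and is abundant in lung endothelium, lies on chromosome 17 from 86753907 to 86833410. In WT lung it was 10.4, 37.7 and 8.75 CPM at 0h and 30.1, 15.2 and 40.5 CPM at 12 hours. In lung labelled αD KO, it was 23.9, 26.8 and 54.4 CPM at 0h and 12.4, 9.16 and 32.6 CPM at 12 hours. The groups overlapped in every pair. Outside WT 0h library 2, where it was 5.73 CPM, blood reached at most 1.36 CPM. Tmem100, a transmembrane protein gene of the BMP9 and ALK1 pathway in endothelium, lies on chromosome 11 from 90030348 to 90036508. It ranged from 3.24 to 22.7 CPM in lung and had 3 counts or fewer in 9 of the 12 blood libraries. Cldn5, the tight junction gene claudin-5 (chromosome 16, 18776847 to 18778260), ranged from 2.57 to 17.5 CPM in lung and from 0 to 2.74 CPM in blood. Cdh5, the gene of VE-cadherin of endothelial junctions (chromosome 8, 104101625 to 104144511), was the lowest of the 4, at 1.09 to 5.63 CPM in lung and 0 to 2.08 CPM in blood.

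Endothelial transcripts in blood were higher in the libraries 1b. The 4 genes summed to 5.25, 1.1, 3.11 and 1.34 CPM in the blood libraries 1b of WT 0h, WT 12 hours, αD KO 0h and αD KO 12 hours. The 7 blood libraries 1a and 2 other than WT 0h library 2 were between 0.357 and 0.779 CPM, below all 4 of these. The same libraries 1b carried the higher olfactory receptor counts given above, and what they share with these transcripts was not tested.

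Per kilobase of exon, which allows genes of different length to be compared, the mean level over the 12 lung libraries fell from Scgb1a1 at 293.5 CPM per kilobase to Sftpc at 37.8. Scgb1a1 was the higher of the pair in 11 of 12 lung libraries, although the mean rested on a few very high ones (SD 418.9). Sftpc was above Tmem100 (7.01 CPM per kilobase) in all 12, and Tmem100 was above Cldn5 in 10. Cldn5 (4.75), Epas1 (4.74), Ager (4.36) and Sftpa1 (3.31 CPM per kilobase) followed, and each of them was above the next of these 4 in only 7 of 12 libraries, so their order is not set beyond the spread. Sftpa1 was above Sftpd (1.57) in all 12 libraries. Sftpd was above Sftpb (0.901) in 9, and Sftpb was above Cdh5 (0.711 CPM per kilobase) in 6.

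The make-up of the lung transcripts differed widely from one lung library to the next. Counts of Scgb1a1 per count of Sftpc ranged from 0.5 in WT lung 0h library 2 to 27.1 in WT lung 12 hours library 1b. Scgb1a1 was 84.4% of the member counts in that latter library (95% exact Clopper-Pearson interval 83.3% to 85.5%) and 9.8% in WT lung 12 hours library 1a (8.05% to 11.8%). These were libraries of the same group, and the intervals cover counting error only. The ratio of airway to alveolar transcript thus varied between libraries of a group. The summed epithelial level was 0.486 to 13.6 times the summed endothelial level across the 12 lung libraries, with the lowest ratio in WT lung 12 hours library 1a and the highest in αD KO lung 0h library 1a.

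**Figure D2:**
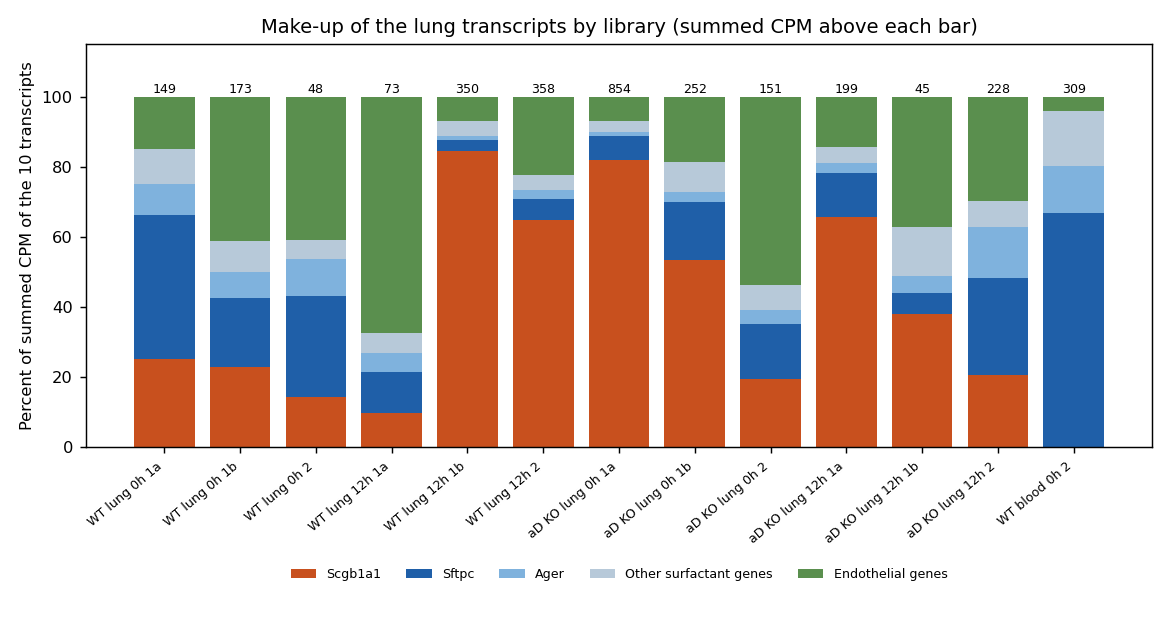
Share of the summed CPM of the 10 transcripts taken by Scgb1a1, Sftpc, Ager, the other surfactant genes (Sftpb, Sftpa1 and Sftpd) and the 4 endothelial genes, in percent, for the 12 lung libraries and WT blood 0h library 2, with the summed CPM above each bar. Scgb1a1 takes most of WT lung 12h library 1b and of αD KO lung 0h library 1a, and almost none of the blood library.

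WT blood 0h library 2 held the 10 transcripts in another make-up than any lung library. Sftpc was 66.8% of its member counts (95% exact interval 65.7% to 67.8%), and the lung library with the largest share, WT lung 0h library 1a, was at 41.2% (39.7% to 42.8%). Scgb1a1 was 10 of its 7326 member counts, or 0.137% (0.0655% to 0.251%), while the lowest lung library was at 9.8%. Its epithelial sum was 22.8 times its endothelial sum, above all lung libraries and close to WT blood 0h library 1a (22.5), where the endothelial genes had 10 counts in all. This library held Sftpc, Sftpa1, Sftpd and Ager above all lung libraries, with Scgb1a1 at the level of the other blood libraries. Its epithelial level was 295.7 CPM and its endothelial level 13 CPM, which is under the lowest lung library (16.9 CPM). Its S100a8 (14780 CPM) and its mean over the genes that rose at 12 hours (3.62, beside 3.62 and 3.06 in the other WT blood 0h libraries) gave no separation from its group, and its olfactory receptor sum was 83.3 CPM.

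Other genes, some of them of the lung lists, were also raised in that library. Across the 12 blood libraries, 8 genes had at least 10 CPM in it and at least 3 times the level of the next library, by a rule chosen after the values were seen. They were Sftpc, Ager, Sftpa1, Gpx3, Sparc, Inmt, Cav1 and Sec14l3. Inmt, a methyltransferase gene high in lung stroma, was 17.9 CPM beside at most 0.494 CPM in the others. Cav1, the caveolin gene of AT1 and endothelial cells, was 14.2 CPM beside 0.996 CPM. Among the AT1 list genes, Clic5 was 5.73 CPM (at most 0.996 CPM elsewhere in blood) and Aqp5 3.24 CPM (at most 0.282). Other genes of that list were not highest in this library, such as Hopx at 16.4 CPM, beside up to 135.1 CPM elsewhere in blood. Over all 27145 genes tested between the tissues, 4.58% had their highest blood level in it. Of the lung lists, 6 of 10 general epithelium, 5 of 10 AT1, 4 of 10 AT2, 9 of 30 endothelium and 5 of 18 mesenchyme genes did, and 0 of 10 secretory airway, 0 of 10 ciliated and 0 of 4 mesothelium genes. Of the other lists, 3 of 10 neutrophil and 2 of 10 monocyte and macrophage genes did, and none of the 5 remaining lists had such a gene. The secretory airway list summed to 8.85 CPM in this library, within the range of the other blood libraries (0.218 to 15.4 CPM) and below the lowest lung library (9.28 CPM).

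**Figure D3:**
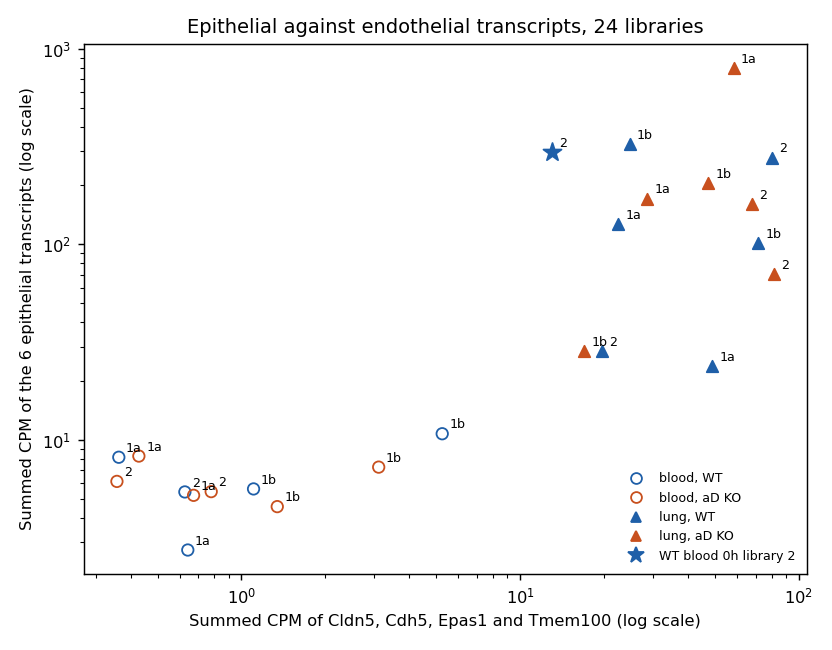
Summed CPM of the 6 epithelial genes against summed CPM of the 4 endothelial genes in the 24 libraries, both on log axes, each point marked with its library number. The 12 lung libraries lie at the upper right, 11 blood libraries at the lower left, and WT blood 0h library 2 (star) has the epithelial level of lung (295.7 CPM) with 13 CPM of the endothelial genes.

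The change after CLP and the difference between genotypes were tested in lung, where all 10 genes passed the filter on low counts. DEGs had to reach a Benjamini-Hochberg adjusted p under 0.05 in edgeR's quasi-likelihood test and to differ by more than 1 on the log2 scale. Where the share of called genes below is 0%, between 72 and 2432 genes had an unadjusted p under 0.05, and DESeq2 called between 0 and 350. In WT lung at 12 hours against 0h, 0 of the 10 genes were called, beside 9.02% of 14859 genes tested. Scgb1a1 was 28.0 ± 18.3 CPM at 0h and 177.9 ± 151.3 CPM at 12 hours (SD, n = 3), with a log2 fold change of 2.78 (standard error 1.2, edgeR adjusted p = 0.183). Sftpc went the other way in these means, from 36.4 ± 23.8 to 13.9 ± 7.42 CPM (log2 fold change -1.43, standard error 0.57, edgeR adjusted p = 0.155). Both had an unadjusted p under 0.05, and the other 8 did not. The median over the 10 genes was 0.40, with 6 higher and 4 lower, and that over all genes was 0.03. DESeq2 called 1 of the 10, Scgb1a1 (log2 fold change 2.77, adjusted p = 0.0329). The share of all genes that DESeq2 called is not given here, so that call has no background beside it. Without the libraries 1b, edgeR called Cldn5, Cdh5 and Epas1 as higher at 12 hours, with log2 fold changes of 1.69, 1.69 and 1.65. That fit called 5299 of 14258 genes, so 3 of 10 was no larger a share than that of all genes.

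In lung labelled αD KO, edgeR called 0 of the 10 genes at 12 hours against 0h, beside 0% of 17939 genes. None of them had an unadjusted p under 0.05, and DESeq2 also called 0. Scgb1a1 was 287.9 ± 360.3 CPM at 0h and 64.9 ± 58.8 CPM at 12 hours (log2 fold change -2.17, standard error 1.09, edgeR adjusted p = 1), and its fitted value ranged from -4.54 to -0.42 over the alternatives. In all, 8 of the 10 fitted values were below 0. Without the 3 libraries that lay closer to those of the other time, the fitted log2 fold change at 12 hours against 0h was -4.54 for Scgb1a1 and -4.17 for Sftpc. That fit, chosen after seeing the data, compares libraries 1a and 1b of a single sample with 1 library of another, which is assumed to vary like the others, so it sets 1 sample against 1. The lone library, 1b at 12 hours, had the lowest summed level of the 12 lung libraries, 45.4 CPM.

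Between the genotypes in lung, edgeR called 0 of 10 genes at 0h, beside 0% of 18232 genes, and 0 of 10 at 12 hours, beside 0% of 16764 genes. DESeq2 called 0 of 10 at each time. At 0h Scgb1a1 was the 1 gene with an unadjusted p under 0.05, with a log2 fold change of 3.38 for the libraries labelled αD KO over WT (standard error 1.22, edgeR adjusted p = 0.983). It was 3.96 without library 2 of that group and ranged from 1.7 to 4.24 over the alternatives. At 12 hours no gene had one, and the largest fitted differences were those of Scgb1a1 (-1.44, standard error 1.17) and Ager (1.4, standard error 0.88). The value for Scgb1a1 ranged from -3.17 to -0.28 over the alternatives, with -3.17 without the libraries out of place. Ager at 12 hours was 5.47, 2.2 and 33.6 CPM in lung labelled αD KO and 4.02, 4.33 and 8.6 CPM in WT, so that library 2 labelled αD KO carried the mean. Without the libraries 1b, Sftpc was called at 12 hours as higher in the group labelled αD KO (log2 fold change 1.64) among 4686 genes called of 15574, and without the libraries out of place, which leaves library 1b alone in that group, its fitted value was -2.11.

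The test of whether the change with time differed between the genotypes called 0 of the 10 genes, beside 0% of 23211 genes. Scgb1a1 had the largest fitted difference, -4.82 on the log2 scale (standard error 1.88, unadjusted p = 0.0247 and adjusted p = 0.411 in the edgeR fit over all genes). Its fitted change was upward in WT and downward in the libraries labelled αD KO. Over the alternatives tried, the fitted difference ranged from -7.13 (without the 3 libraries out of place) to -2.73 (without αD KO 0h library 1a), and its adjusted p from 0.064 to 1. DESeq2 called 0 of the 10 genes.

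In WT blood at 12 hours against 0h, 5 of the 10 genes passed the filter on low counts, and edgeR called 1, Sftpc, beside 13.5% of 14625 genes. Sftpc and Sftpd reached the filter's level in all 3 libraries at 0h and in 0 at 12 hours, so that the filter let them in only through the group where they were high, and their direction and calls are given as a description. Sftpa1 reached it in 2 libraries at 0h and 1 at 12 hours, and Ager in all 6. The fitted log2 fold change of Sftpc was -10.14 (standard error 2.69, edgeR adjusted p = 0.0448), from 4952 counts at 0h and 3 counts at 12 hours. The ratio of the scaled counts was 1362, with a 95% exact counting interval of 465.6 to 6605. Nearly all of the 0h counts were those of library 2. Without it, 62 counts stood against 3, the ratio was 27.5 (8.99 to 137.1), and the fitted log2 fold change was -4.44 (edgeR adjusted p = 0.404). The call was also lost with the files of sample 1 summed (edgeR adjusted p = 0.0575), without WT 0h library 1a or without any 1 of the 3 WT libraries at 12 hours. Sftpa1, Sftpd and Ager had an unadjusted p under 0.05 and were not called, with log2 fold changes of -5.32, -4.23 and -2.64. Each had its highest blood level in WT 0h library 2, where Ager was 41.1 CPM beside 4.86 and 2.08 CPM in libraries 1a and 1b. Over the alternatives, the fitted values ranged from -6.46 to -2.49 for Sftpa1, -6.57 to -3.155 for Sftpd and -3.23 to -0.44 for Ager. Libraries of the same number varied together in WT blood, and an edgeR fit that blocked on the number called Sftpc and Sftpd, among 2692 of 14625 genes. Both are genes that the filter let in only through 0h, so these calls are also given as a description.

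In the other blood comparisons, no lung transcript was called. At 12 hours against 0h in blood labelled αD KO, 2 of the 10 genes, Sftpb and Ager, passed the filter and 0 were called by edgeR (0 with an unadjusted p under 0.05), beside 8.75% of 14156 genes. Between genotypes at 0h, 9 genes passed and edgeR called 0, beside 0.0115% of 17356 genes. Sftpc was the 1 gene with an unadjusted p under 0.05 (log2 fold change -6.42 for αD KO over WT, standard error 2.37, edgeR adjusted p = 1), which again rested on WT library 2. Without that library its fitted value was -0.80. Its counts were 57, 5 and 4890 in WT and 1, 2 and 53 in the libraries labelled αD KO. The filter on low counts may have let it in through WT, so its direction and p-value are given as a description. At 12 hours, 2 genes passed and 0 were called by edgeR (0 with an unadjusted p under 0.05), beside 0% of 12596 genes. DESeq2 called 0 of these genes in the 3 comparisons.

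Other marker genes of the lung, from 8 lists of 102 genes that exclude the 10 transcripts, were tested between lung and blood over all 24 libraries. edgeR called 34 of 99 tested genes, or 34.3%, all of them higher in lung, beside 1.39% of all genes. Their median log2 fold change was 2.08. Blocking on the library number gave 52, among 897 genes called of 27145, and leaving out the 3 αD KO lung libraries out of place gave 21, among 112 genes called of 32827.

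The secretory airway list had the largest share called, 8 of 10. Bpifa1, a secreted defence protein of the airway, had a log2 fold change of 7.95 (standard error 0.85, edgeR adjusted p = 9.68e-05). It had 0 counts in 9 of the 12 blood libraries and at most 0.282 CPM in the others. The filter on low counts thus let it in only through lung, and its direction is given as a description. Cyp2f2, a cytochrome P450 gene of club cells, was 15.2 ± 18.5 CPM in lung and 0.245 ± 0.377 CPM in blood (SD, n = 12 each; log2 fold change 6). Cbr2, a carbonyl reductase gene of the same cells, had a log2 fold change of 4.23. edgeR called 0 of 9 tested genes of the ciliated cell list (median log2 fold change 1.09, 3 with an unadjusted p under 0.05) and 0 of 4 mesothelium genes (median 0.36, 0 with an unadjusted p under 0.05), and DESeq2 called 0 in both.

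Of the alveolar lists, edgeR called 1 of 9 AT2 genes and 1 of 10 AT1 genes, and DESeq2 called 1 and 4. DESeq2 also called more genes than edgeR in the general epithelium (4 against 1), mesenchyme (12 against 7), alveolar macrophage (3 against 1) and platelet (7 against 2) lists. The AT1 gene was Clic5, a chloride channel family gene, at 6.82 ± 3.54 CPM in lung and 0.706 ± 1.62 CPM in blood (log2 fold change 4.37, standard error 0.7, edgeR adjusted p = 0.00168). The AT2 gene was Muc1, a surface mucin gene (log2 fold change 1.21). Several genes of these lists were present in the blood libraries as well, and the cells that they came from were not tested. Napsa, Abca3 and Hopx, named after their values were seen, changed with CLP in WT blood as in WT lung. Napsa, an aspartic protease gene, rose in WT lung (log2 fold change 2.77) and in WT blood (2.59), and Abca3, a lipid transporter gene, fell by 3.07 in WT lung and by 2.67 in WT blood on the log2 scale. Hopx rose in WT lung (1.74) and in WT blood (2.57). Krt7, the 1 gene of 9 called in the general epithelium list between lung and blood (log2 fold change 1.6), also fell in both tissues. These 4 were the lung list genes called in WT lung at 12 hours, out of 83 tested (4.82%, beside 9.02% of all genes). Napsa was 140.2, 36.9 and 138.9 CPM in WT blood at 0h and 971.9, 487.7 and 684.1 CPM at 12 hours, so it was abundant in blood libraries at both times.

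Of the endothelium list, 16 of 30 genes were called higher in lung, with a median log2 fold change of 2.39. The 3 with the highest lung level were Calcrl, the receptor of adrenomedullin, at 28.8 ± 14.5 CPM in lung and 14.4 ± 6.53 CPM in blood (log2 fold change 1.00), Egfl7, a secreted vessel factor, at 15 ± 10.8 and 1.07 ± 1.12 CPM (3.93), and Flt1, the VEGF receptor 1 gene, at 13.1 ± 10.5 and 5.4 ± 4.23 CPM (1.5). Of the mesenchyme list, 7 of 18 genes were called. Col3a1 and Col1a2, fibrillar collagen genes, had log2 fold changes of 3.57 and 3.76, and Inmt had 5.73. The collagen means rested on αD KO lung 0h library 1a, where Col3a1 was 203 CPM and Col1a2 175.2 CPM, beside at most 29.2 and 15.9 CPM in the other 11 lung libraries.

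The list of alveolar macrophages, immune cells resident in lung, had 1 of 10 genes called, Plet1, higher in lung (log2 fold change 2.41), with a list median of 1.23. Lists of blood cells had medians below 0, and their called genes were lower in lung. Of the monocyte and macrophage list (median -0.33), 3 of 10 genes were called, all lower in lung, and they include F13a1 (-3.2) and Cx3cr1 (-2.33). The platelet list had 2 lower genes, Ppbp (-2.15) and Gp9 (-1.89). edgeR called 0 of 10 B cell, 9 tested T and NK cell, 8 tested erythroid and 10 neutrophil genes, whose medians were -0.57, -0.67, -1.34 and -0.15. Of these lists in the same order, 2, 1, 5 and 3 genes had an unadjusted p under 0.05, and DESeq2 called 0, 1, 2 and 2. The summed erythroid level was 89.9 to 3548 CPM in lung and 27.9 to 9196 CPM in blood.

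**Figure D4:**
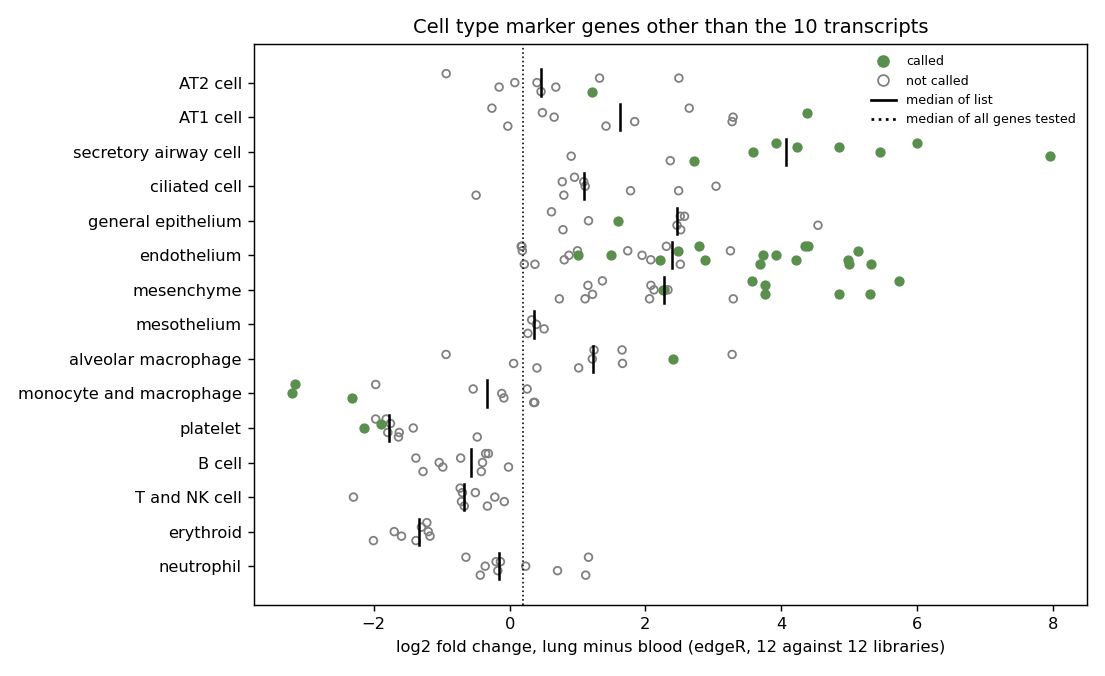
Log2 fold change of lung over blood for the tested marker genes of 15 cell type lists, without the 10 transcripts, 1 point a gene, with filled points for genes called by edgeR, a bar at each list's median and a dotted line at the median of all genes (0.19). The secretory airway and endothelium lists have the most calls, 8 of 10 and 16 of 30 genes, all higher in lung, and the platelet and monocyte lists hold the called genes that were lower in lung.

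Genes whose level followed the lung transcripts most closely were found over the 12 lung libraries by Pearson's r of log2(CPM + 1), as a description. With the sum of the 6 epithelial genes, the highest r among 27135 genes were those of Cbr2 (0.97), Ccdc153 (0.94), Cyp2f2 (0.92), Nmnat1 (0.89), Selenbp1 (0.89), Dynlrb2 (0.86), Mgst3 (0.84) and Slc6a9 (0.84). Scgb1a1 was more than 50% of that sum in 6 of the 12 lung libraries, and Ccdc153 and Dynlrb2 were under 1.4 CPM in every library. With the sum of the 4 endothelial genes, they were Cyb561 (0.95), Rhoj (0.95), Nkd1 (0.94), Ehd4 (0.94), Hspb1 (0.94), Adgrf5 (0.93), Pxdc1 (0.93) and Ehd2 (0.92). Adgrf5, an adhesion receptor gene of lung endothelium and epithelium, ranged from 6.36 to 35.8 CPM in lung and reached 3.41 CPM in blood. For Nmnat1, Mgst3, Slc6a9 and Ehd4, the highest blood level was above the highest lung level (58.2 against 39.2 CPM for Ehd4). The points share libraries 1a and 1b of the same samples and the scaling of each library.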

How the data were processed

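RNA of sorted neutrophils was sequenced after SMART-Seq v4 amplification and Nextera XT library preparation. The authors trimmed reads with Trimmomatic 0.36, mapped them with STAR 2.5.2b (versions from the submitters' processing notes, which name GRCm38 and mm10), and deposited raw counts of unique exon reads for 49315 genes in 24 files. The counting tool and its strand setting are not given in the sources used here. Gene positions are those in the files, on GRCm38.

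The 10 genes, the 15 marker lists (172 genes, 171 of them in the files) and the tests were chosen with earlier results of these data known. The genes named were the 10 members, up to 3 called genes per list by mean lung CPM, the 8 genes most like the epithelial and the endothelial sum, Ly6g, S100a8, S100a9, Csf3r and Itgad. Single genes outside this rule, among them Aqp5, F13a1, Cx3cr1, Ppbp and Gp9, were chosen after their values were seen. Some list results are not reported here.

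The 2 files of a group's sample 1 gave chi-square values of 63.5 to 328.5 per degree of freedom (genes with at least 10 counts) and were kept as separate libraries. The main test was that of edgeR 4.0.16 in R 4.3.3 (TMM, filterByExpr, quasi-likelihood F test, two-sided, libraries of the groups compared, Benjamini-Hochberg adjustment) and DESeq2 1.42.0 was an alternative. The scripts were tested on simulated counts. Same-numbered libraries deviated together (every correlation over 0.1, across genes, which are not independent) in 7 of 8 comparisons of 2 groups and in lung against blood in 3 of 4 groups. The exceptions were lung 0h αD KO against WT (8.89e-05 for library 1a) and αD KO 0h lung against blood (0.0885 for library 1a). The labels state no pairing, so the main fits have no block. Alternatives were RLE scaling, no filter, at least 10 counts in every library, DESeq2, the files of sample 1 summed, a fit of all 8 groups, the library number as a block, the adjusted p alone and each library left out. Leaving out the 3 αD KO lung libraries out of place, or the libraries 1b, was chosen after seeing the data. Depth limits genes under about 3 counts a library.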

Additional observations from a re-analysis of the deposited data

How the results depend on the processing

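Counts of called lung transcripts changed in 4 of the 9 time, genotype and interaction comparisons, and the cause was not tested unless stated. In WT lung at 12 hours against 0h the count was 1 with DESeq2 and 3 without libraries 1b, in αD KO lung it was 2 without the 3 libraries out of place, and in lung at 12 hours between genotypes it was 1 without libraries 1b, each from 0. In WT blood the count of 1 became 3 without a filter on low counts, 2 with DESeq2 (which gave Sftpc no adjusted p), 3 with all 8 groups fitted together, 0 with the files of sample 1 summed, 2 with the library number as a replicate block, 3 without libraries 1b and 0 to 2 with each library left out. For these WT blood fits other than the replicate block, the share of all genes called is not given. Nor is it given for DESeq2 in WT lung or for αD KO lung without the 3 libraries out of place. Those counts are therefore not read as a result about the lung transcripts. The block changed no other call of a lung transcript. The 34 lung list genes called became 2 with at least 10 counts in every library, where only 11 were tested, 52 with the replicate block, 21 without the 3 libraries out of place and 24 to 39 with each library left out. The median log2 fold change of 3.85 became 0.95 where at least 10 counts in every library were asked for, since only 1 of the 10 genes was then tested.

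Single fitted values changed sign as follows. With each library left out in turn, WT lung values at 12 hours against 0h ranged from -0.073 to 1.63 for Cdh5, -0.46 to 1.37 for Cldn5 and -0.013 to 1.51 for Epas1, with the negative values without library 2 at 12 hours, and Sftpc in αD KO lung ranged from -1.54 to 0.092, the latter without library 1b at 12 hours. In αD KO lung, Sftpc was 0.12 with the files of sample 1 summed and 0.086 without libraries 1b, and in lung at 12 hours between genotypes it was -2.11 without the 3 libraries out of place. RLE scaling moved the median of all genes by at most 0.09 in size.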

Other observations

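Transcripts of other lung cells stood out in single lung libraries labelled αD KO, by the rule of at least 10 CPM and at least 3 times the next lung library, which was chosen after the values were seen. In αD KO lung 0h library 1a, 9 genes met it, led by fibrillar collagens: Col3a1, Col1a2, Col1a1, Dcn, Pmp22, Mmp3, Igfbp5, Lum and Serpinf1. Dcn, the proteoglycan decorin, was 80.3 CPM there and at most 12.2 CPM in the other lung libraries. The mesenchyme list summed to 764.4 CPM in that library and to between 56.3 and 318.1 CPM in the other 11.

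In αD KO lung 12 hours library 1a, 6 genes met the rule: Scgb3a1, Reg3g, Bpifa1, Bpifb1, Pld4 and Clca1. Scgb3a1, a secretoglobin of the larger airways, was 67.0 CPM there and at most 7.03 CPM elsewhere in lung, and Reg3g, an antimicrobial lectin gene, was 51.6 CPM and at most 1.98 CPM. Of the marker lists, 7 of 10 secretory airway genes and 9 of 10 platelet genes had their highest lung level in that library. The 10 secretory airway genes summed to 307.8 CPM in that library, beside 132.2 CPM in αD KO lung 0h library 1a, where Scgb1a1 was over 5 times as high (699.4 against 130.7 CPM). Scgb1a1 and the other airway genes thus had different ratios in these 2 libraries, and their cause was not tested.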
